A study of Mus musculus with 16 samples.

Results

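Guca2a, Guca2b and Gucy2c encode the hormone guanylin, the hormone uroguanylin and guanylate cyclase C, the receptor on which both act. These 3 genes were examined among 18850 named genes measured in mouse colon organoids. All 3 were among the 11766 genes bright enough to be tested, which lay above the 40th percentile of the array (6.40 to 6.56 log2) on at least 4 of the 16 arrays. The rule took the brightest probe set of each named gene over the 16 arrays, and each of the 3 genes had 1. The family was chosen by its measured TNFa differences as well as by function, because the large TNFa responses of Guca2a and Guca2b were known at the time. Their TNFa effects are therefore given as a description without a test, and tests are kept for the genotype comparisons and for the difference between the TNFa effects. That difference is built from the TNFa effects known at the choice, and the genotype comparisons use the same arrays. The p-values of the 3 genes are therefore not independent of the choice. A gene was called when its Benjamini-Hochberg adjusted p over all tested genes, from limma's moderated test, was under 0.05.

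The organoids, epithelial cultures grown in ENR medium, formed 4 groups of 4 single-colour Affymetrix arrays. They were mutant organoids given recombinant TNFa at 50 ng/ml for 12 h (mutant + TNFa), mutant organoids without TNFa (mutant), wild-type organoids given the same TNFa (WT + TNFa) and wild-type organoids without it (WT). The mutants carry altered alleles of both Atf2 and Atf7, which encode related stress-responsive transcription factors. The genotype field gives the mutant as ATF2 fl/fl / ATF7 KO while the sample descriptions give Atf2 as knocked out and Atf7 as floxed, and no label mentions recombination of the floxed allele. The treatment protocol of every sample names TNFa, and the samples were taken as treated where their own titles name it. The labels number the samples without saying whether they came from separate animals or cultures, and the spread behind the p-values may be partly technical.

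Guanylin and uroguanylin are small peptides that epithelial cells of the gut secrete into the lumen, where they bind guanylate cyclase C on the brush border. The receptor then makes cyclic GMP, which acts through the cyclic GMP-dependent kinase PRKG2 and other routes to open the chloride channel CFTR and to inhibit the sodium-hydrogen exchanger NHE3. The result is a wetter, more alkaline mucosal surface. The bacterial heat-stable enterotoxin causes diarrhoea by mimicking the hormones, and guanylin mRNA is known to be lost early in colon tumours.

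The 2 hormone genes lie next to each other on mouse chromosome 4 of GRCm38.p6. Guca2a spans chr4:119637732-119639465 and Guca2b spans chr4:119656601-119658945, with 17135 bases between them. Gucy2c spans chr6:136697284-136781742. Because the 2 hormone genes were high on the same arrays, the 250 bases before each RefSeq start are shown, at chr4:119637482-119637731 on the plus strand for Guca2a and at chr4:119658946-119659195 on the minus strand for Guca2b, with capitals marking motif matches.
Guca2a promoter: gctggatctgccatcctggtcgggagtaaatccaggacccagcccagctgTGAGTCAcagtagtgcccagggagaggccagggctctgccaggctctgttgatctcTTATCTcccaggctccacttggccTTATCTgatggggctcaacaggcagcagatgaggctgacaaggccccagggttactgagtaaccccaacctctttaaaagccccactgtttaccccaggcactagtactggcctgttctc
Guca2b promoter: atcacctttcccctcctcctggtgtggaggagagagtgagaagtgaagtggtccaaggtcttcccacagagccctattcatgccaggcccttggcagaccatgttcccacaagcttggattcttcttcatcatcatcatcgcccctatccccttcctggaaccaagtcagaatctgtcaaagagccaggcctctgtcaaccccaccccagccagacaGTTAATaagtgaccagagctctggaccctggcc

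The windows held different motifs. On both strands, 7 motifs were searched, and the matches did not overlap. The Guca2a window held the AP-1 motif TGANTCA beginning 200 bases before the start, a motif that 6.75% of 32851 promoter windows of the same length held. It also held the GATA motif AGATAA on the opposite strand, beginning 144 and 120 bases before the start, against 9.99% of windows. The Guca2b window held the HNF1 core GTTAAT 33 bases before the start, against 6.43% of windows. Neither window held the CRE TGACGTCA, present in 1.55% of windows, the kappa B consensus, present in 7.25%, the CDX motif TTTATG, present in 10.8%, or TATAA, present in 22.8%. A match describes these letters only, and the starts are those of the annotation.

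The samples were epithelial by their markers. Epcam lay at 11.25 to 11.40 log2 and Cdh1 at 12.37 to 12.59 on the 16 arrays. By limma 0 of 6 such markers were called in any comparison, where 0.0085% to 10.8% of all tested genes were called. At most 1 had an unadjusted p under 0.05 in each. Of the others, 0 of 5 immune, 0 of 4 endothelial and 1 of 5 fibroblast and muscle markers, Col1a1, were bright enough to be tested. Ptprc, the pan-leukocyte gene, passed the 40th percentile on 2 of 16 arrays, and Pecam1 on 0. Col1a1 passed it on 16 of 16 arrays, at 7.76 to 8.27 log2. Summed immune markers ran from 8.17 to 8.54 log2 in mutant + TNFa and 8.25 to 8.53 in mutant, and from 8.23 to 8.56 in WT + TNFa and 8.13 to 8.52 in WT. Atf2, with 1 probe set whose place in the gene is not given, averaged 10.12 log2 in mutant + TNFa, 10.15 in mutant, 10.18 in WT + TNFa and 10.16 in WT, so these values do not check the alleles, and no probe set was named Atf7. Array WT + TNFa 2 correlated less with its group (mean r 0.977) than the other 15 did with theirs (0.986 to 0.995). Without it the TNFa difference in WT was 1.06 log2 for Guca2a, 1.67 for Guca2b and −0.30 for Gucy2c, and the genotype difference of Guca2b with TNFa was −0.33 log2 (limma adjusted p = 0.0146).

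Both hormone genes were brighter with TNFa in both genotypes, and the receptor gene was dimmer. Guca2b was 2.41-fold higher with TNFa in mutant organoids and 3.15-fold higher in WT organoids. Guca2a was 2.00-fold higher in mutant and 2.08-fold higher in WT. Gucy2c was 1.20-fold lower in mutant and 1.24-fold lower in WT. Values below are signals on the log2 scale, and levels are compared only within a gene, because probe sets differ in brightness for reasons other than abundance.

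**Figure D1:**
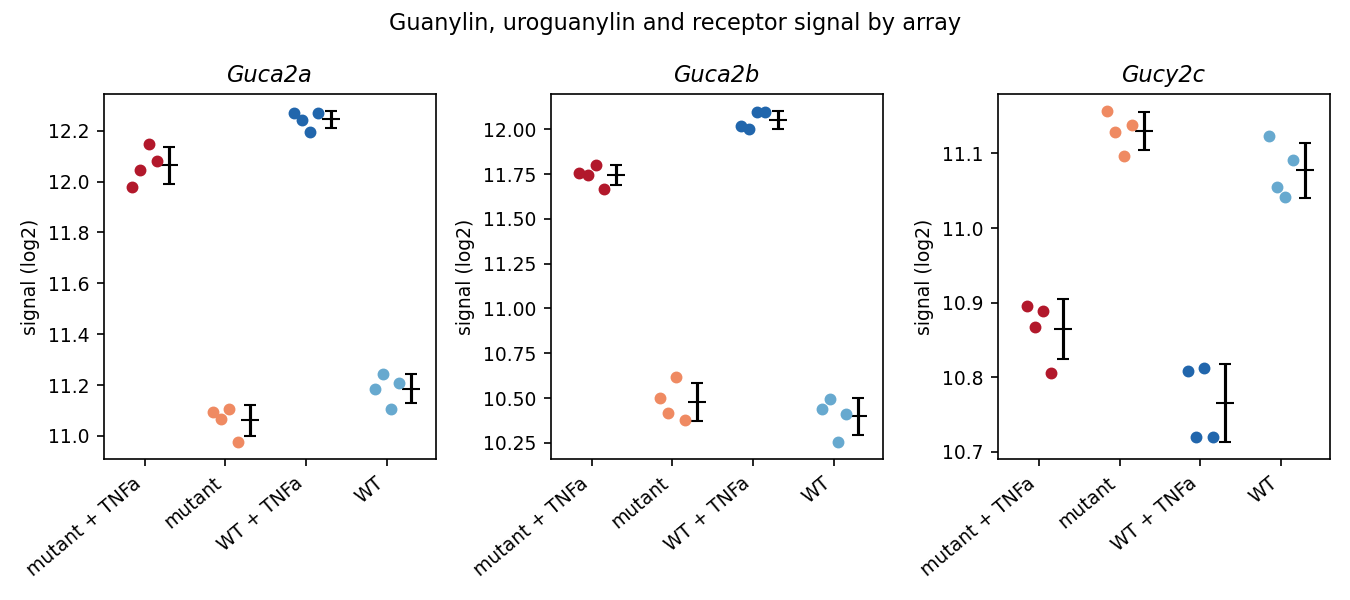
Log2 signal of Guca2a, Guca2b and Gucy2c on each of the 16 arrays (points), with the mean ± SD of each group of 4 (bars); each panel has its own scale. In each genotype the TNFa arrays lie above the untreated arrays for both hormone genes and below them for the receptor gene.

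Guca2b, the uroguanylin gene, had signals of 11.76, 11.75, 11.80 and 11.67 log2 in mutant + TNFa organoids and 10.50, 10.41, 10.62 and 10.37 in mutant organoids. In WT + TNFa organoids it had 12.02, 12.00, 12.10 and 12.10 log2, against 10.44, 10.49, 10.25 and 10.41 in WT organoids. Every TNFa array was thus more than 1 log2 above every untreated array. The means were 11.74 ± 0.057 in mutant + TNFa, 10.48 ± 0.11 in mutant, 12.05 ± 0.052 in WT + TNFa and 10.40 ± 0.10 in WT (log2, SD, n = 4 each). The TNFa difference was 1.27 log2 in mutant (SE 0.065, 95% interval 1.13 to 1.40) and 1.65 log2 in WT (SE 0.065, 1.52 to 1.79). Ranked by change among the 11766 tested genes, Guca2b came 29th from the top in mutant and 17th in WT.

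Guca2a, the guanylin gene, had signals of 11.98, 12.05, 12.15 and 12.08 log2 in mutant + TNFa organoids and 11.09, 11.07, 11.11 and 10.97 in mutant organoids. It had 12.27, 12.24, 12.20 and 12.27 log2 in WT + TNFa organoids, against 11.19, 11.25, 11.11 and 11.21 in WT organoids. The TNFa and untreated arrays were again well apart in each genotype. The means were 12.06 ± 0.072 in mutant + TNFa, 11.06 ± 0.060 in mutant, 12.24 ± 0.035 in WT + TNFa and 11.19 ± 0.058 in WT (log2, SD, n = 4 each). The TNFa difference was 1.00 log2 in mutant (SE 0.054, 95% interval 0.89 to 1.12) and 1.06 in WT (SE 0.054, 0.94 to 1.17), and the gene ranked 52nd and 48th among tested genes. The highest signal of any probe set on any array was 12.9 log2, so both hormone genes were read near the top of the scale when TNFa was present.

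Gucy2c, the receptor gene, moved less and in the other direction. Its signals were 10.90, 10.87, 10.89 and 10.81 log2 in mutant + TNFa organoids and 11.16, 11.13, 11.10 and 11.14 in mutant organoids. They were 10.81, 10.72, 10.81 and 10.72 log2 in WT + TNFa organoids, against 11.12, 11.06, 11.04 and 11.09 in WT organoids. No TNFa array reached the dimmest untreated array of its genotype. The means were 10.86 ± 0.041 in mutant + TNFa, 11.13 ± 0.025 in mutant, 10.77 ± 0.053 in WT + TNFa and 11.08 ± 0.037 in WT (log2, SD, n = 4 each). The TNFa difference was −0.27 log2 in mutant (SE 0.048, 95% interval −0.37 to −0.16) and −0.31 in WT (SE 0.048, −0.41 to −0.21). From the bottom, it ranked 369th of 11766 in mutant and 530th in WT.

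TNFa and untreated arrays did not overlap for 3 of the 3 genes in either genotype, with 2 higher and 1 lower. Over all tested genes the groups did not overlap for 13.9% in mutant (7.88% higher, 5.98% lower) and for 14.2% in WT (6.82% higher, 7.34% lower). Nothing is read from this count, since the TNFa response entered the choice of the family. In whole organoids a change in the number of expressing cells and a change in mRNA per cell cannot be told apart.

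With TNFa present, the mutant had less Guca2b than WT. Guca2b averaged 11.74 ± 0.057 log2 in mutant + TNFa and 12.05 ± 0.052 in WT + TNFa, a 1.24-fold lower level with no overlap between arrays (−0.31 log2, SE 0.065, 95% interval −0.45 to −0.17, limma adjusted p = 0.0135, lower in 4 of 4 arrays). Guca2a was also lower on every mutant + TNFa array than on any WT + TNFa array, by 1.13-fold, but was not called (−0.18 log2, SE 0.054, 95% interval −0.30 to −0.067, limma adjusted p = 0.0984). Gucy2c overlapped between the genotypes (0.099 log2, SE 0.048, 95% interval −0.0021 to 0.20, limma adjusted p = 0.380). In this comparison 1 of the 3 genes was called, where 2.69% of all tested genes were called (1.13% as lower). Arrays did not overlap for 2 of the 3, both lower, and for 8.89% of all tested genes (4.27% higher, 4.62% lower). The Guca2b call was lost without array mutant + TNFa 4 (−0.28 log2, limma adjusted p = 0.0582), and Guca2a was called when the variance was fitted with a trend and robustly (limma adjusted p = 0.0123).

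Without TNFa the genotypes were close. Guca2b differed between mutant and WT by 0.077 log2 (SE 0.065, 95% interval −0.060 to 0.21, limma adjusted p = 0.685) and Gucy2c by 0.053 (SE 0.048, −0.049 to 0.15, adjusted p = 0.714). Guca2a differed by −0.12 log2 (SE 0.054, −0.24 to −0.011, adjusted p = 0.315). By limma 0 of the 3 genes were called, against 2.48% of tested genes, and 1 of 3, Guca2a, had an unadjusted p under 0.05. Arrays failed to overlap for 0 of the 3 genes, against 9.34% of tested genes (3.46% higher, 5.88% lower).

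The TNFa effect on Guca2b was smaller in mutant than in WT by 0.39 log2, but the difference did not survive adjustment over all genes (−0.39 log2, SE 0.092, 95% interval −0.58 to −0.19, limma adjusted p = 0.297). For Guca2a the difference was −0.056 log2 (SE 0.076, −0.22 to 0.11, limma adjusted p = 0.908) and for Gucy2c 0.047 (SE 0.068, −0.097 to 0.19, limma adjusted p = 0.913). By limma 0 of 3 were called, against 0.0085% of tested genes, and 1 of 3 had an unadjusted p under 0.05. Among the 11766 tested genes the Guca2b difference ranked 81st from the bottom.

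The order of the levels followed from these comparisons. For both hormone genes WT + TNFa was highest and mutant + TNFa next, a step that was called for Guca2b and not for Guca2a. The untreated groups came below, mutant above WT for Guca2b and WT above mutant for Guca2a, with neither step called. For Gucy2c the order was mutant, WT, mutant + TNFa, WT + TNFa, and neither step between the genotypes was called.

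**Figure D2:**
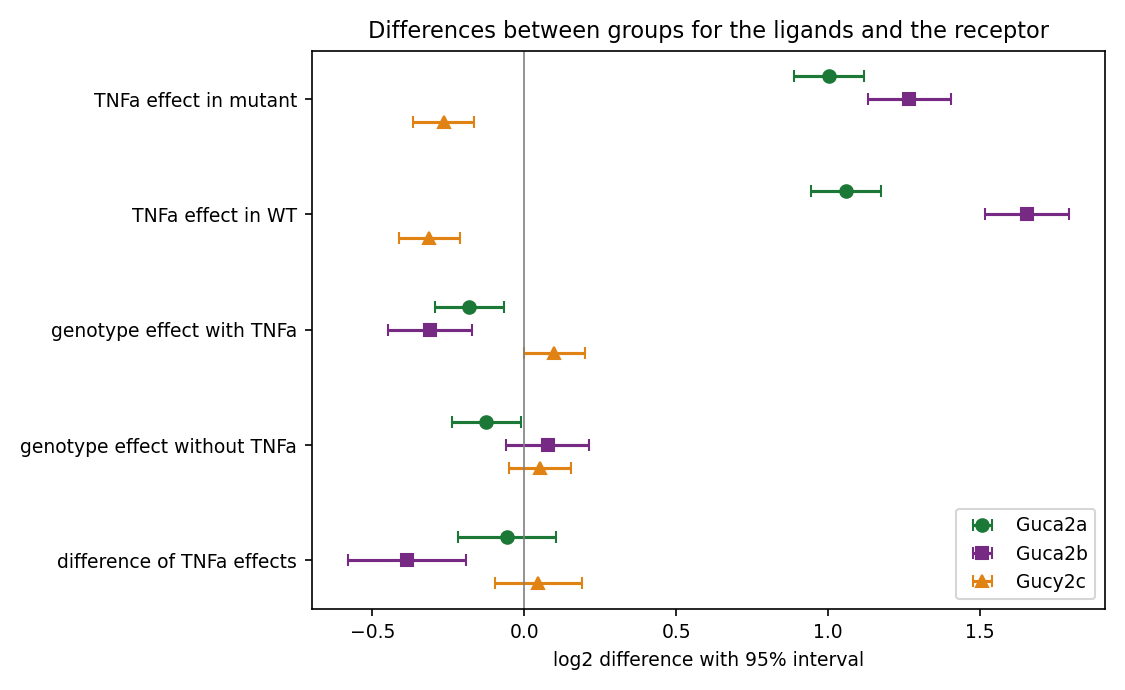
Log2 differences of Guca2a, Guca2b and Gucy2c in 5 comparisons (points) with 95% intervals from the limma fit (bars). TNFa effects are TNFa minus no TNFa, genotype effects are mutant minus WT, and the last row is the TNFa effect in mutant minus that in WT. For the TNFa effects the intervals lie above 0 for Guca2a and Guca2b and below 0 for Gucy2c in both genotypes. In the other comparisons they lie below 0 for Guca2b in the genotype effect with TNFa and in the difference of TNFa effects, and for Guca2a in both genotype effects.

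The genes whose profiles over the 16 arrays were nearest to the hormone genes, after centring each gene on its own mean, were other genes with large TNFa differences, from 0.96 to 1.70 log2 in mutant and 0.99 to 1.76 in WT. The measure itself required this, since a gene near a hormone gene over these arrays must share its TNFa difference. The list is a description only. For Guca2a the nearest genes were Birc3, an inhibitor of apoptosis, the NF-kB subunit gene Nfkb2, the cytokine gene Tnfsf15, the integrin gene Itgb6 and the kinase gene Ikbke, with root mean square differences of 0.11 to 0.14 log2. For Guca2b they were the chemokine gene Cxcl16, Nfkbia, which encodes the inhibitor IkBa, the cytokine gene Flt3l, the NADPH oxidase gene Nox1 and the p38 kinase gene Mapk11, with differences of 0.18 to 0.23 log2. The nearest profile to Guca2b still left a larger distance than the nearest to Guca2a. By the same measure Guca2b ranked 45th for Guca2a, and Guca2a ranked 8th for Guca2b, so neither was the closest match of the other.

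The genes beside the hormone genes on chromosome 4 had TNFa differences from −0.069 to 0.30 log2 where they could be tested. On the lower-coordinate side, Foxj3, a forkhead factor gene, differed by 0.020 log2 with TNFa in mutant and −0.069 in WT, Frg2f1 by 0.019 in mutant and −0.022 in WT, and Rimkla by 0.057 in mutant and 0.060 in WT. On the other side Hivep3, a zinc finger factor gene, differed by 0.30 log2 in mutant (limma adjusted p = 0.0896) and 0.20 in WT (limma adjusted p = 0.229). Edn2, the endothelin 2 gene, and Foxo6, the next genes out, were too dim to be tested. By limma 0 of the 4 tested neighbours were called for TNFa in either genotype, and 1, Hivep3 in mutant, had an unadjusted p under 0.05. Over all tested genes 5.98% were called in mutant and 10.8% in WT, and nothing about these 4 genes is read from their count.

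Beside Gucy2c on chromosome 6, the nearest measured gene on the lower-coordinate side, Plbd1, fell with TNFa in mutant (−0.79 log2, limma adjusted p = 0.0056) and in WT (−0.54, adjusted p = 0.0424). It was higher in mutant than in WT both with TNFa (0.66 log2, limma adjusted p = 0.0370) and without it (0.91, adjusted p = 0.00355). Plbd1 was dim, averaging 6.38 log2 in mutant + TNFa, 5.72 in WT + TNFa and 6.26 in WT, all below the lowest 40th percentile of any array. Only its mean in mutant, 7.17 log2, lay above, so it passed the filter largely through the group where it was high. Its calls are therefore a description, and its TNFa difference in WT lies between 2 means below that percentile. The TNFa call in WT was lost under several alternatives (limma adjusted p up to 0.133), and so was the genotype call with TNFa (up to 0.116). Atf7ip, H4f16, H2aj and Wbp11 were not called in any comparison, and E330021D16Rik was too dim to be tested. H2aj, a histone gene, differed by 0.019 log2 with TNFa in mutant and 0.024 in WT.

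Genes around the receptor were taken from 6 lists with 53 genes, of which 48 were measured and 36 tested. The lists follow general knowledge but were drawn up with earlier results of these data known. Their counts, here and below, are therefore a description and not independent evidence. With TNFa, 5 of the 36 rose and 0 fell in mutant, where 5.98% of all tested genes were called (3.51% rose and 2.47% fell). In WT 5 rose and 5 fell, where 10.8% were called (5.03% rose and 5.75% fell). The median difference of the 36 was −0.0038 log2 in mutant and −0.024 in WT, against 0.0073 and 0.0096 over all tested genes. By limma in mutant, 5 of the 36 had an unadjusted p under 0.05 in the falling direction. Without array WT + TNFa 2, whose profile stood apart from its group, 7 rose and 1 fell in mutant, and 5 rose and 6 fell in WT. The number that fell in WT was 3 with the stricter filter and 9 with array weights. The number that fell in mutant was 1 under 4 of the other settings, 1 without WT 3 or mutant 2, and 2 without mutant 3.

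The ion transporters that the receptor pathway controls held most of the rises. Of 9 tested, 4 rose in mutant and 3 in WT, where 3.51% and 5.03% of all tested genes rose. By limma 0 fell in either genotype, with 1 in mutant and 2 in WT lower at an unadjusted p under 0.05. The median difference of the 9 was 0.26 log2 in mutant and 0.18 in WT. Cftr, the chloride channel gene, had 7.72, 7.56, 7.68 and 7.84 log2 in mutant + TNFa organoids and 6.96, 7.32, 7.18 and 7.25 in mutant organoids. It had 7.45, 7.78, 7.18 and 7.25 log2 in WT + TNFa organoids, against 6.79, 6.91, 7.06 and 7.04 in WT organoids. The groups did not overlap in either genotype, and Cftr rose 1.43-fold in mutant (0.52 log2, SE 0.11, limma adjusted p = 0.00814) and 1.38-fold in WT (0.46 log2, SE 0.11, limma adjusted p = 0.0126). In WT that call was lost when only the WT arrays were fitted (limma adjusted p = 0.0552). Between the genotypes with TNFa, Cftr differed by 0.28 log2 (limma adjusted p = 0.257), and it was called as higher in mutant without array WT + TNFa 2 (limma adjusted p = 0.0290).

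Slc12a2, the basolateral cotransporter that loads cells with chloride, rose 1.56-fold in mutant (0.64 log2, limma adjusted p = 1.3e-05) and 1.64-fold in WT (0.71 log2, limma adjusted p = 3.3e-06). Kcne3, a potassium channel subunit that sustains chloride secretion, rose 1.38-fold in mutant (0.47 log2, limma adjusted p = 0.00602) and differed by 0.18 log2 in WT without a call. Slc26a3, the main chloride-bicarbonate exchanger of the colon surface, differed by −0.053 log2 with TNFa in mutant and −0.0061 in WT, without a call.

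**Figure D3:**
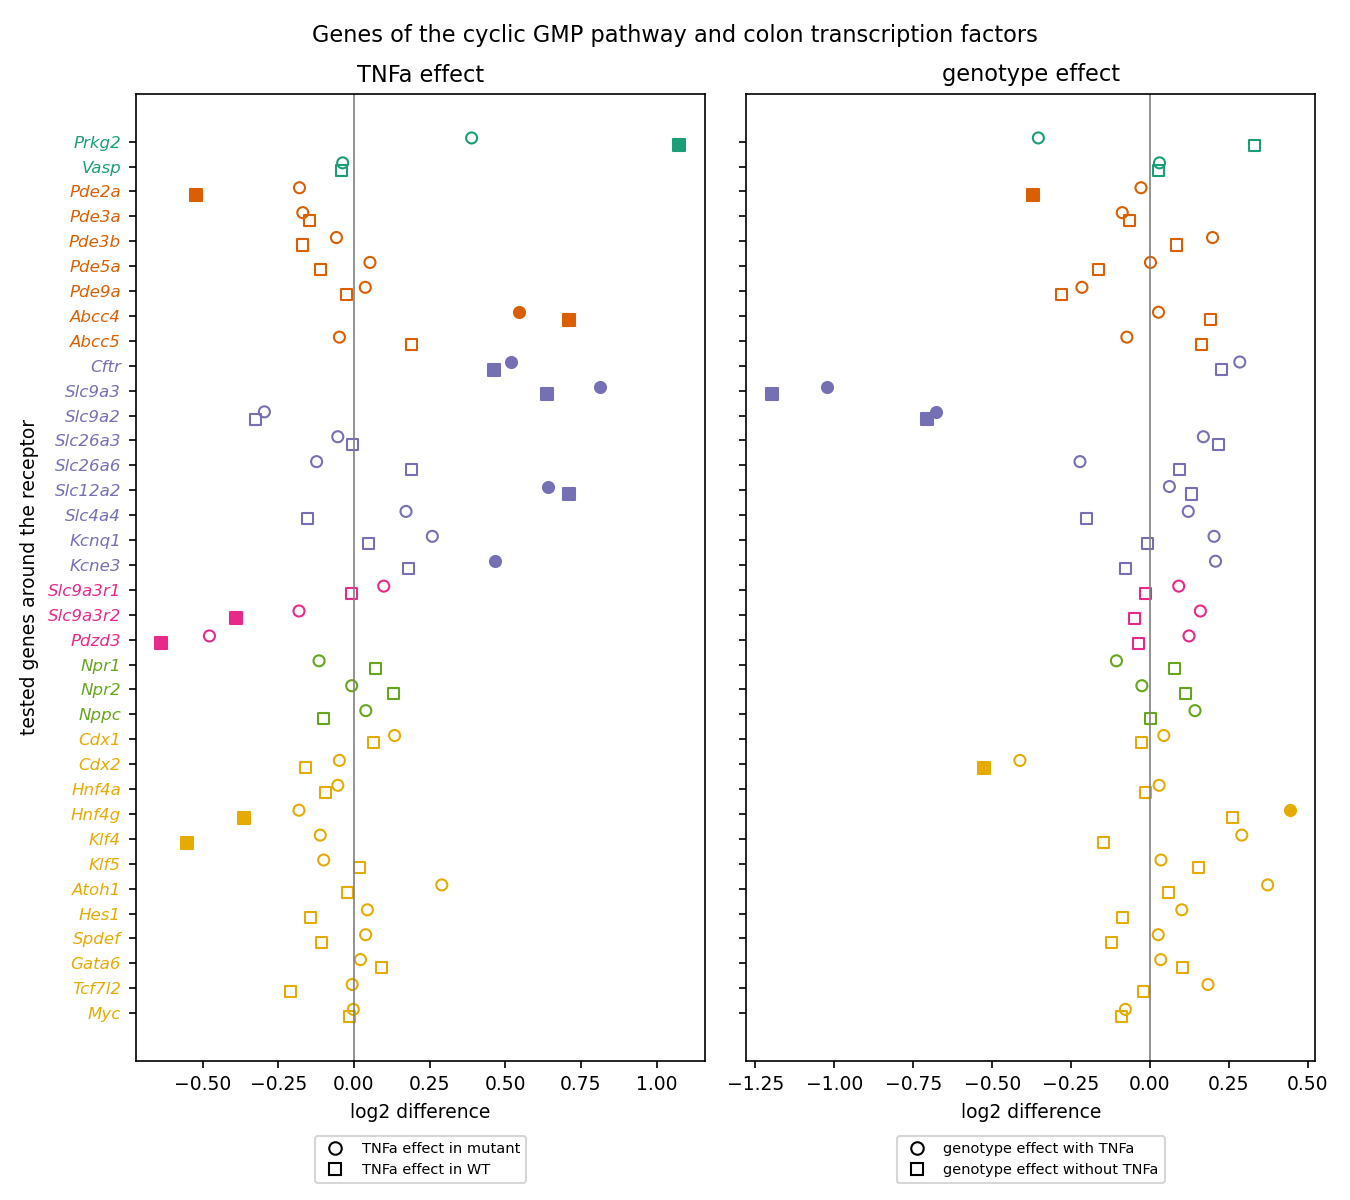
Log2 differences of the 36 tested genes around the receptor, coloured by list, for TNFa (left) and genotype (right). Filled symbols passed limma's adjusted p of 0.05 and open symbols did not; circles are mutant organoids (left) or organoids with TNFa (right), squares are WT organoids or organoids without TNFa. Cftr, Slc9a3, Slc12a2 and Abcc4 rose with TNFa in both genotypes, and Slc9a3 and Slc9a2 fell in mutant under both conditions.

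Slc9a3, which encodes NHE3, the exchanger that the pathway inhibits, was the transporter with the largest genotype difference of the 9. It had 9.64, 9.47, 9.74 and 9.75 log2 in mutant + TNFa organoids, against 10.57, 10.93, 10.45 and 10.75 in WT + TNFa organoids. It had 9.08, 9.20, 8.72 and 8.35 in mutant organoids, against 10.02, 9.94, 10.19 and 9.99 in WT organoids. The mutant was lower in 4 of 4 arrays under both conditions, by 2.03-fold with TNFa (−1.02 log2, SE 0.15, limma adjusted p = 0.000646) and by 2.29-fold without it (−1.20 log2, SE 0.15, limma adjusted p = 0.000106).

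TNFa raised Slc9a3 in both genotypes, by 1.76-fold in mutant (0.81 log2, limma adjusted p = 0.00176) and by 1.56-fold in WT (0.64 log2, limma adjusted p = 0.00769). The TNFa effects on Slc9a3 were not shown to differ between genotypes (0.17 log2, SE 0.21, limma adjusted p = 0.893). Slc9a2, a related sodium-hydrogen exchanger, was also lower in mutant, by 1.60-fold with TNFa (−0.68 log2, limma adjusted p = 0.00662) and by 1.63-fold without it (−0.71 log2, limma adjusted p = 0.00412).

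**Figure D4:**
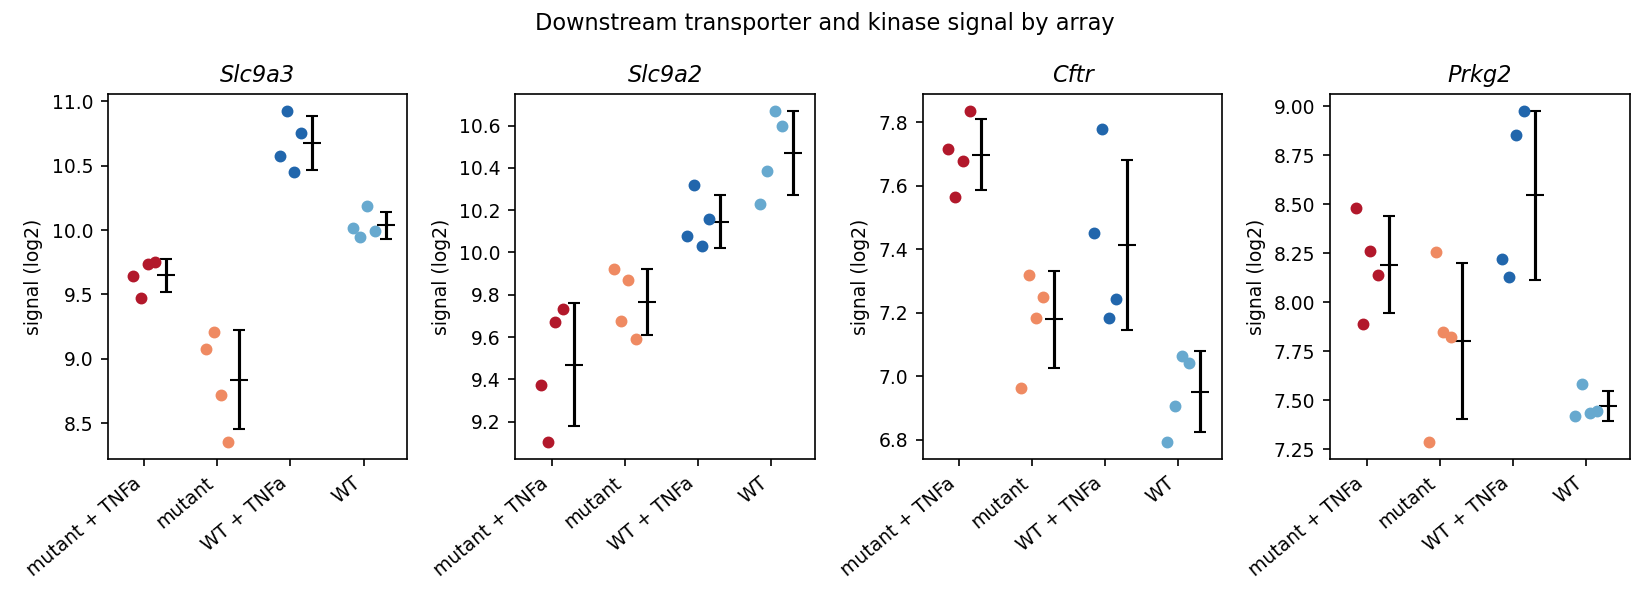
Log2 signal of Slc9a3, Slc9a2, Cftr and Prkg2 on each of the 16 arrays (points), with the mean ± SD of each group of 4 (bars); each panel has its own scale. Slc9a3 and Slc9a2 are lower on every mutant array than on any WT array of the same treatment.

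Among the enzymes that act on or respond to cyclic GMP, the kinase gene Prkg2 was high with TNFa in WT. It had 8.48, 7.89, 8.26 and 8.14 log2 in mutant + TNFa organoids and 7.28, 8.26, 7.85 and 7.82 in mutant organoids, which overlap. It had 8.22, 8.13, 8.86 and 8.98 in WT + TNFa organoids, against 7.42, 7.58, 7.44 and 7.45 in WT organoids, which do not. Prkg2 rose 2.11-fold in WT (1.07 log2, SE 0.20, limma adjusted p = 0.00142) and was 1.31-fold higher in mutant without a call (0.39 log2, limma adjusted p = 0.365). The 2 effects were not shown to differ (−0.69 log2, SE 0.28, limma adjusted p = 0.597). Vasp, a kinase substrate of the actin cytoskeleton, differed by −0.037 log2 in mutant and −0.042 in WT.

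Of 7 tested phosphodiesterase and efflux genes, Abcc4, which encodes a pump that exports cyclic nucleotides, rose with TNFa by 1.46-fold in mutant (0.55 log2, limma adjusted p = 0.000304) and by 1.64-fold in WT (0.71 log2, limma adjusted p = 1.4e-05). Pde2a, a phosphodiesterase stimulated by cyclic GMP, fell 1.44-fold with TNFa in WT (−0.52 log2, limma adjusted p = 9.7e-06). In mutant it was 1.13-fold lower with TNFa, without a call (−0.18 log2, limma adjusted p = 0.0859). The 2 effects were not shown to differ (0.34 log2, limma adjusted p = 0.297). Pde2a was also lower in mutant than in WT without TNFa (−0.37 log2, limma adjusted p = 0.00115). Pde5a, which degrades cyclic GMP, differed by 0.053 log2 with TNFa in mutant and −0.11 in WT, with limma adjusted p of 0.894 in mutant and 0.532 in WT.

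Of 3 tested scaffolds that tether brush border transporters, Pdzd3, whose product binds guanylate cyclase C, fell with TNFa in WT (−0.64 log2, limma adjusted p = 0.00903). Slc9a3r2, which encodes the NHE3 regulator NHERF2, fell as well (−0.39, limma adjusted p = 0.00385), where 5.75% of all tested genes fell in WT. In WT + TNFa both were dim, with means of 6.16 log2 for Pdzd3 and 6.36 log2 for Slc9a3r2. Pdzd3 passed the 40th percentile on 4 of 4 WT and 4 of 4 mutant arrays, but on 1 of 4 WT + TNFa and 0 of 4 mutant + TNFa arrays. Slc9a3r2 passed it on 4 of 4 WT and 0 of 4 WT + TNFa arrays. Both thus passed the filter largely through groups where they were high, and their calls are a description. In mutant, limma called 0 of the 3, where 5.98% of all tested genes were called, and 2 were lower at an unadjusted p under 0.05. The other guanylate cyclases and natriuretic peptides were mostly dim, with 3 of 11 measured genes tested. These were the receptors Npr1 and Npr2 and the peptide Nppc, which differed with TNFa by −0.12 to 0.039 log2 in mutant and −0.10 to 0.13 in WT, with no call by limma and none at an unadjusted p under 0.05.

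Of 12 tested transcription factor genes of the colon epithelium, 0 rose and 0 fell with TNFa in mutant by limma, where 3.51% and 2.47% of all tested genes did. At an unadjusted p under 0.05, 2 were higher and 1 lower. In WT 2 fell, where 5.75% of all tested genes did. They were Klf4, a factor of epithelial differentiation (−0.55 log2, limma adjusted p = 0.000334), and Hnf4g (−0.36, limma adjusted p = 0.00723), whose call was lost with only the WT arrays (limma adjusted p = 0.0567). Cdx2, an intestinal master factor known to drive Gucy2c, was lower in mutant without TNFa (−0.52 log2, limma adjusted p = 0.0158), a call lost without WT 1, WT 2 or mutant 1 (limma adjusted p 0.0504 to 0.0602). With TNFa, Cdx2 differed in the same direction without a call (−0.41 log2, limma adjusted p = 0.0650). Hnf4g was higher in mutant with TNFa (0.44 log2, limma adjusted p = 0.00555). Over the 36 genes, 1 rose and 2 fell in mutant with TNFa, where 1.56% and 1.13% of tested genes did, and 0 rose and 4 fell without it, where 1% and 1.48% did. Without TNFa 4 had an unadjusted p under 0.05 in the rising direction, and without array WT + TNFa 2 limma called 2 as risen. Without that array 3 rose and 3 fell with TNFa. The number that rose with TNFa was 4 without array WT + TNFa 4, 4 with a variance trend and robust fitting, 5 with array weights, and 2 with the stricter filter, either renormalization or the replicate block. Without TNFa it was 1 with the stricter filter or with the trend and robust fitting, and 2 with array weights.

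Colonocytes and goblet cells are known sources of guanylin in the colon. With TNFa, colonocyte markers were called in both directions, and goblet cell markers were called in WT only. The marker lists were also drawn up with earlier results of these data known, so their counts are a description. Of 15 mature colonocyte markers, 1 rose and 1 fell with TNFa in mutant, where 5.98% of all tested genes were called (3.51% rose and 2.47% fell). In WT 2 rose and 1 fell, where 10.8% of all tested genes were called (5.03% rose and 5.75% fell). Their summed level (log2 of the added linear signals) was 15.19 to 15.24 log2 in mutant + TNFa and 15.18 to 15.32 in mutant, and 15.25 to 15.36 in WT + TNFa and 15.24 to 15.36 in WT. Car1 and Car4, the first markers of that list, differed by −0.12 and 0.48 log2 in mutant and by −0.075 and 0.68 in WT. Car4 was called in WT (limma adjusted p = 0.0297), a call lost in 10 alternatives (adjusted p up to 0.0840). Fabp2, a fatty acid binding protein gene, fell in both genotypes (−0.91 log2 in mutant and −1.16 in WT). Slc51b, which encodes a subunit of the basolateral bile acid transporter, rose in both (0.59 log2 in mutant, limma adjusted p = 0.000804, and 0.43 log2 in WT, limma adjusted p = 0.00699).

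Of 10 goblet cell markers limma called 0 with TNFa in mutant, where 5.98% of all tested genes were called, with 1 lower at an unadjusted p under 0.05. In WT 2 fell, where 5.75% of all tested genes fell, Muc2 (−0.25 log2, limma adjusted p = 0.0216, up to 0.120 under alternatives) and Reg4 (−0.75 log2). At an unadjusted p under 0.05, 4 were lower in WT. The 10 markers differed by −0.14 to 0.23 log2 in mutant and by −0.75 to −0.013 in WT. Their summed level was 14.98 to 15.02 log2 in mutant + TNFa and 15.002 to 15.076 in mutant, and 14.90 to 14.97 in WT + TNFa and 15.05 to 15.08 in WT. The TNFa and untreated sums overlapped in mutant and did not in WT.

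Enteroendocrine markers were also called with TNFa. Of 9 tested, 3 rose and 0 fell in mutant, where 3.51% and 2.47% of all tested genes did, and 1 rose and 3 fell in WT, where 5.03% and 5.75% did. By limma in mutant, 1 was lower at an unadjusted p under 0.05. Tph1, which encodes the enzyme that starts serotonin synthesis in the gut, rose in both genotypes (1.75 log2 in mutant, limma adjusted p = 2.3e-07, and 0.93 log2 in WT, limma adjusted p = 0.000194). Cck and Gcg rose as well in mutant (0.70 and 0.53 log2), and Chga, Pyy and Scg2 fell in WT (−0.30, −0.25 and −0.49 log2). The summed level of the 9 markers was 12.50 to 12.72 log2 in mutant + TNFa and 12.40 to 12.56 in mutant, which overlap, and 12.03 to 12.19 in WT + TNFa and 12.28 to 12.36 in WT, which do not.

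Where Guca2b was lower in mutant with TNFa, markers of several cell types also differed between the genotypes. Of 9 tested enteroendocrine markers, 7 rose in mutant + TNFa over WT + TNFa and 0 fell, where 1.56% of all tested genes rose. Their summed levels, given above, did not overlap. Nor did those of colonocyte markers, which were lower in mutant + TNFa, or of goblet cell markers, which were higher. Summed stem cell markers were higher too, at 9.91 to 10.11 log2 in mutant + TNFa and 9.68 to 9.85 in WT + TNFa. Gcg, the proglucagon gene, rose by 1.07 log2 and Scg2, a granule protein gene, by 0.83 log2. The calls of Tac1, Chga and Cck were lost under 1 or more alternatives (limma adjusted p up to 0.127). In the same comparison 2 of 15 colonocyte markers, Emp1 (−0.69 log2) and Tmigd1 (−0.67 log2), fell, where 1.13% of all tested genes fell. By limma 6 of the 15 were lower and 0 higher at an unadjusted p under 0.05. Of 10 goblet cell markers 1, Reg4, rose (1.26 log2, limma adjusted p = 2.6e-08) and 0 fell. Reg4 was also the 1 gene called for the difference of TNFa effects (0.69 log2, limma adjusted p = 0.0344), a call lost without 11 of the 16 arrays left out in turn and under 3 other alternatives (limma adjusted p up to 0.226). Of 5 stem cell markers 1, Smoc2, rose (0.43 log2, limma adjusted p = 0.00568), and the 1 tested tuft cell marker, Avil, differed by −0.00012 log2. Some of these differences were present without TNFa, where Guca2b was not called. There 1 of 9 enteroendocrine markers, Tac1, was called as higher in mutant (0.51 log2), a call lost under some alternatives. Of 10 goblet cell markers 1, Reg4, was called as higher (0.58 log2). Of 15 colonocyte markers 2 fell, Emp1 among them (−0.48 log2). Of all tested genes 1% rose and 1.48% fell. The part of any of these cells in the hormone gene values was not tested.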

How the data were processed

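RNA of 16 mouse colon organoid samples, 4 in each of 4 groups, was measured on 1 single-colour Affymetrix array each. The deposited values are log2 signals that the authors made with RMA in Affymetrix Expression Console, per the submitters' processing notes; versions, array design and genome build are not given in the sources used here. Of 19825 probe sets, 18851 carried 1 gene symbol in the platform annotation, 974 none and 0 several. Signals ran from 2.23 to 12.9 log2 and array medians from 7.02 to 7.11; the number of arrays limits the precision.

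No further normalization was applied. Each gene was represented by its brightest probe set, and 7084 dim genes were set aside. Group means were compared by a single limma 3.58.1 model of the 16 arrays under R 4.3.3, with Benjamini-Hochberg adjustment over the 11766 tested genes. The script was tested on simulated data. Errors are the SE of the fit, intervals cover 95%, and SDs are over a group's 4 arrays. Alternatives were other filters, probe set means, array weights, robust fitting with a variance trend, renewed quantile normalization, median centring, replicate blocks, only the arrays compared, and each array left out.

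The members, the 6 pathway lists and the 9 marker lists were chosen with earlier results of these data known. Named were the 3 genes, Cftr, Slc9a3, Prkg2 and Pde5a, up to 4 called genes per pathway list, the 5 nearest profiles, the nearest 3 measured neighbours on each side, and from marker lists the first 2 members and up to 3 called genes; other named genes were chosen after their values were seen. Promoters and positions are RefSeq's on GRCm38.p6, matched by symbol for 2 of the 3 genes. Same-numbered samples did not deviate together (r from −0.305 to 0.248 over 16 pairs), so numbers were not treated as pairs.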

Additional observations from a re-analysis of the deposited data

Results flagged for a closer look

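Of 68 groups of 4 arrays examined over 17 genes, 1 held an array far from the others. For Prkg2, WT array 2 had 7.58 log2 and the nearest of the other WT arrays 7.45, a gap of 0.847 of the group's range which is above Dixon's critical value for 4 arrays. Chance alone flags about 5% of such groups.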

How the results depend on the processing

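For Guca2a, Guca2b and Gucy2c, 223 of 225 tested values under the alternatives kept their direction and their side of the threshold, and 0 reversed. The 156 values of their TNFa effects, which have no test, kept their direction and moved by less than 1 SD between arrays. The genotype difference of Guca2b with TNFa was −0.28 log2 without mutant + TNFa replicate 4 (limma adjusted p = 0.0582), and from −0.33 to −0.28 over the 16 left-out arrays. That of Guca2a was −0.18 log2 and called with a variance trend and robust fitting (limma adjusted p = 0.0123). With the replicate number as a block, Guca2b with TNFa kept its call (−0.31 log2, limma adjusted p = 0.0359), and no call of the 3 genes changed; of the 16 pairs 3 correlated above 0.1 and 2 samples correlated best with their own number. Of 1900 values for other genes and counts, 1749 stayed, 101 lost a call, 2 gained one, 48 moved and 0 reversed.

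The count of genes called for TNFa in mutant was 704, and 1095 with array weights; in WT it was 1269, and 720 with only the WT arrays. For genotype with TNFa it was 317, and 617 with array weights, 185 with only the compared arrays and 191 to 339 with an array left out; without TNFa it was 292, and 443 with array weights. For the difference of TNFa effects it was 1, and 0 to 5 over the alternatives. The cause was not tested. Fold changes of genes near 6.56 log2 are approximate because their signal is near background.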
